A study of Mus musculus with 12 samples.

Results

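The regions described here are stretches of the mouse genome where the histone mark H4K8ac (histone H4 acetylated at lysine 8) was found over exons and 3' UTRs in adult oligodendrocyte progenitor cells (OPCs). They were chosen from the peak lists of the 3 adult libraries. Adult peaks that overlapped by 1 bp or more were merged into 93007 regions, of which 37086 had a peak in all 3 adult lists. A region was kept when every one of its adult peaks had an annotation of exon or 3' UTR, and 823 regions met this rule, holding 2832 adult peaks. Adult presence is therefore fixed by the choice and is given as description only, while the neonatal lists took no part in it.

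The cells carried the Pdgfrα-H2BEGFP reporter, a nuclear green fluorescent protein driven from the gene of the platelet-derived growth factor receptor alpha, and were sorted from forebrain. One group came from neonatal mice at postnatal day 5 and the other from adult mice at postnatal day 60, with 3 H4K8ac libraries each, made from 2 ng of immunoprecipitated DNA. The 6 input libraries (10 ng) were not analysed here. Both groups carry the same reporter, whose gene is also active in fibroblast-like cells of brain vessels, and the labels do not say how many animals gave each library. The labels call the libraries biological replicates. P-values measure the spread between these libraries.

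H4K8ac is laid down by histone acetyltransferases and is found mainly at the promoters and enhancers of active genes, where bromodomain proteins can bind acetylated histone H4. Acetylation over exons and 3' UTRs lies inside or at the end of the transcribed unit. OPCs are the dividing glial cells of the brain that give rise to oligodendrocytes, the cells that wrap axons in myelin, and they persist into adult life.

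Peaks numbered 9097, 31189 and 7353 in neonatal replicates 1, 2 and 3 and 72278, 72661 and 77002 in the adult ones. Neonatal replicate 2 thus stood apart from the other neonatal libraries, and the main counts of neonatal peaks are also given without it. Read depth per library is not given in the files, so no interval for depth can be given. Of 18 OPC marker genes, 12 to 18 had a promoter peak in each neonatal list and 15 to 17 in each adult list. Of 20 myelin genes, 4 to 10 had one in the neonatal lists and all 20 in each adult list. Of 16 genes each, microglial markers had a promoter peak for 0 genes in every neonatal list and 1 in every adult list, vascular and fibroblast markers for 0 to 5 and for 5, neuronal markers for 1 to 11 and 8 to 10, and astrocyte markers for 3 to 12 and 8 to 10. The part of these other cell types in the results was not tested.

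Annotated starts and a miRNA lie inside the regions and are shown because the annotation class hides them. RefSeq (GRCm38.p6) places a transcription start inside 4 of the 823 regions, 0.486% of them, against 0.734% of the intron regions, 2.17% of the distal intergenic regions and 40.5% of the promoter regions chosen by the same rule. The starts belong to Gm32267 in a 3' UTR region of Ppfia4, Gm51743 in one of Rftn2, Gm52243 in one of Meltf, and Gm16702 in an exon region assigned to the pseudogene Gm5491. The last lies on the minus strand at chr17:8389454-8389483. It is printed with the start base in capitals. An exon region of Coro6, which encodes the actin-binding protein coronin 6, holds the RefSeq miRNA mmu-miR-12181, with its 5p arm at chr11:77467518-77467539 and its 3p arm at chr11:77467553-77467573, printed with the seed (bases 2 to 8) in capitals.
Gm16702 start: ttttctgggcctttgGgatgctcagcgtgt
mmu-miR-12181-5p: uUGAGGGUgcauaaggacugga
mmu-miR-12181-3p: uCCAGGCCucuugcucucuca

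The Coro6 region (11:77467247-77468480, exon 6 of 11) had authors' fold enrichments over background of 6.03, 4.10 and 5.97 in adult replicates 1, 2 and 3 and no peak in any neonatal list. The Gm5491 region (17:8388476-8389888) had adult folds of 8.32, 7.92 and 6.68 and a peak in neonatal replicate 2 alone, with a fold of 7.07. The Ppfia4 region (1:134298583-134299664) had adult folds of 6.93, 7.58 and 12.8 and a peak in all 3 neonatal lists. Ppfia4 encodes liprin alpha 4, a scaffold protein. The 300 bases around its Gm32267 start hold 23 CG pairs, more than 80.0% of all RefSeq promoter windows of that length, while those of Gm51743 and Gm16702 hold 6 and 9. RefSeq lists 3 starts of Gm52243 in the Meltf region, with 7, 12 and 12 CG pairs.

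By annotation, 414 regions were exon only, 348 were 3' UTR only and 61 held both. Where the strongest peak of a region lay in a numbered exon (439 regions), it was a first exon in 10 (2.28%), a second exon in 60 (13.7%), an internal exon in 287 (65.4%) and the last exon in 150 (34.2%). The transcripts concerned had a median of 10 exons. Along the RefSeq span of the host gene, from 0 at the start to 1 at the end, exon regions lay at a median of 0.684 and 3' UTR regions at 0.956. Both medians lay in the later part of the gene, which follows in part from the choice. The annotation calls anything within 3000 bp of a start a promoter, and 3' UTRs lie at transcript ends. Positions of exons in general were not set beside these values. The regions lay 3003 to 178848 bp from the start assigned in the authors' annotation, with a median of 7927 bp. The lower bound follows from the same 3000 bp limit.

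**Figure D1:**
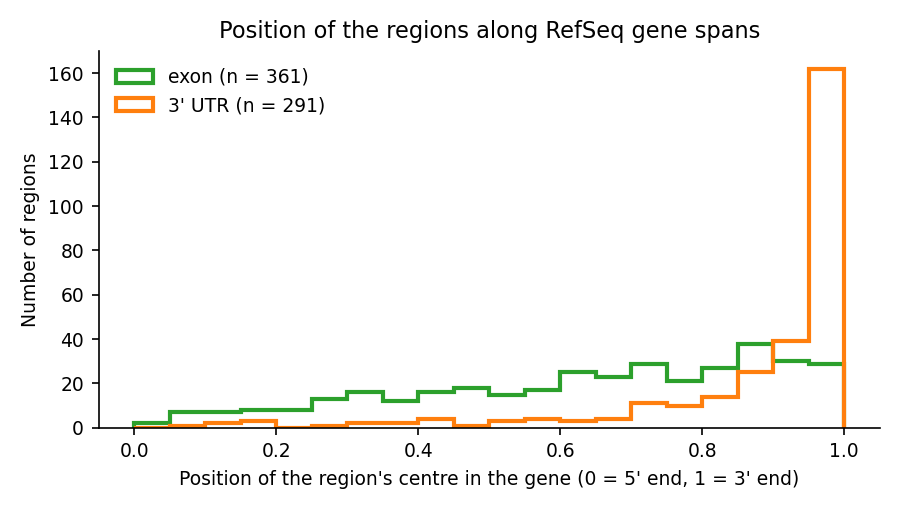
Position of the regions along the RefSeq span of their host gene (0, transcription start; 1, transcript end; number of regions on the y axis), for 361 exon regions and 291 3' UTR regions. Exon regions spread over the gene body with a median of 0.684, and 3' UTR regions sit near the end with a median of 0.956.

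The regions were 168 to 8913 bp wide with a median of 837 bp, against 994 bp for intron, 957 bp for distal intergenic and 1032 bp for promoter regions. Another adult region lay within 500 bp for 532 of them (64.6%), and 131 (15.9%) had none within 5000 bp. Of these 131, 71 (54.2%) had no peak in any neonatal list, against 75.2% of all 823 regions. Such counts were not made for the other classes, so closeness cannot be called a trait of this class. The nearest adult promoter peak was a median of 10016 bp away and lay within 1000 bp for 87 regions (10.6%). For intron and distal intergenic regions the medians were 16119 and 25053 bp, with 7.03% and 3.60% within 1000 bp. Authors' folds had medians of 5.09, 4.82 and 4.90 in adult replicates 1, 2 and 3. In rank, folds of the same region correlated between adult lists at Spearman 0.553 to 0.651 across the 823 regions, which share the libraries and are not independent replicates.

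At the edge of the rule, the weakest regions inside it by geometric mean fold were in Nek10 (2.50), Otud7a (3.03) and Crtc3 (3.03). The strongest exon or 3' UTR regions outside it, with a peak in only 2 of the 3 adult lists, were in Garnl3 (6.49), 6820408C15Rik (6.24) and Srbd1 (6.01), all without a peak in adult replicate 1. In all, 628 regions had exon or 3' UTR peaks in 2 adult lists only and 1616 in 1 only. Another 1379 regions had a peak in all 3 adult lists and mixed exon or 3' UTR peaks with another class, an intron in 1093 of them.

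The host gene was read from the annotated transcript for 458 regions, from the RefSeq span for 320, and was only the assigned nearest gene for 45. It differed from the gene the authors assigned by nearest start in 269 regions (32.7%). Protein-coding genes hosted 718 regions and long non-coding RNA genes 51. In all, 694 genes were hosts, 601 of them with a single region. Zinc finger genes of the Zfp series hosted 10 regions and protocadherins 3.

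Most hosts carried H4K8ac at their promoter in adult cells. A host promoter peak was present in 692, 692 and 690 regions in adult replicates 1, 2 and 3, and in 366 (44.5%), 609 (74.0%) and 316 (38.4%) in neonatal replicates 1, 2 and 3. In all 3 adult lists together, the host promoter was marked for 673 regions (81.8%). Of the 619 regions with no neonatal peak, 534 had a host promoter marked in all 3 adult lists. Of the same 619, the host promoter was marked in 3 neonatal lists for 200, in 2 for 118, in 1 for 154 and in none for 147. Without neonatal replicate 2, the host promoter was marked in both other neonatal lists for 203 of the 619, in 1 for 116 and in neither for 300. By gene, the host shares differed from those over all genes, and the difference was not tested. Of 556 host genes whose promoter was marked in every adult list, 38.1% had it marked in all 3 neonatal lists and 12.9% in none. Over all 13566 genes so marked in adult, the shares were 29.5% and 16.6%. Without neonatal replicate 2, 38.3% of the 556 had it marked in both other neonatal lists and 41.0% in neither. Over all 13566 genes these were 29.6% and 49.6%.

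The region with the highest adult fold was exon 4 of 4 of the predicted gene Gm26660 (14:25316496-25318099), with folds of 17.2, 23.8 and 20.1 in adult replicates 1, 2 and 3. It had a peak in all 3 neonatal lists, with folds of 8.50, 4.07 and 4.49. Next were Synpo (18:60595324-60596941), which encodes the actin-associated protein synaptopodin, with 24.0, 18.4 and 14.3, and an exon of the non-coding gene A230009B12Rik, with 12.9, 19.5 and 14.4. The A230009B12Rik region (17:10484262-10493174) was the widest of all at 8913 bp.

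Further strong regions lay in Prdm2, Tmod1, Wfikkn2, Gpr17, Junos, Shf and Zbtb7b. Prdm2, a histone methyltransferase of the PR-domain family, had adult folds of 20.3, 11.0 and 14.7 over exon 6 of 10. Tmod1, a cap of the slow-growing end of actin filaments, had 12.6, 11.4 and 21.0 over exon 7 of 10. A 3' UTR region given to Wfikkn2, a secreted protein that binds growth differentiation factors, had 14.3, 18.4 and 10.5. The centre of that region lay outside the RefSeq span of Wfikkn2. All 3 also had at least 1 neonatal peak, Prdm2 in every neonatal list and the others in neonatal replicate 2.

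Among these strongest 10 regions, a 3' UTR region given to Gpr17 (18:31943112-31946560) was the only one with no peak in any neonatal list. It overlapped the RefSeq span of more than 1 protein-coding gene, and Gpr17 was taken as the gene assigned by nearest start. Gpr17 encodes a G protein-coupled receptor of committed oligodendrocyte precursors. Folds of the region were 11.7, 12.9 and 18.3 in adult replicates 1, 2 and 3, and adult peaks covered 3361, 3390 and 3449 of its 3449 bp. The Gpr17 promoter had a peak in all 3 neonatal lists and in 2 adult lists. An adult promoter peak lay 157 bp from the region. The assigned start was 3076 bp away, little beyond the 3000 bp within which the annotation calls a promoter. In the authors' deposited table the site on the 3' UTR region had a log2 fold change of 3.65 (adjusted p = 6.92e-16), positive values being higher in adult cells. Of the other strongest regions, those of Synpo, A230009B12Rik and Tmod1 also lay within 1000 bp of an adult promoter peak (732, 207 and 180 bp). Over all 823 regions this held for 10.6%.

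Across the regions, neonatal peaks were found on 55 (6.68%), 201 (24.4%) and 45 (5.47%) in neonatal replicates 1, 2 and 3. Over all 37086 regions with a peak in all 3 adult lists, the shares were 19.0%, 45.8% and 16.4%. No neonatal list had a peak on 619 of the 823 regions (75.2%), against 54.0% of all such regions. All 3 neonatal lists had one on 35 (4.25%), against 12.5%. The remaining regions had a peak in 1 list (142) or in 2 lists (27), and 139 of the 142 owed it to neonatal replicate 2. Without that library, 758 regions (92.1%) had no neonatal peak.

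**Figure D2:**
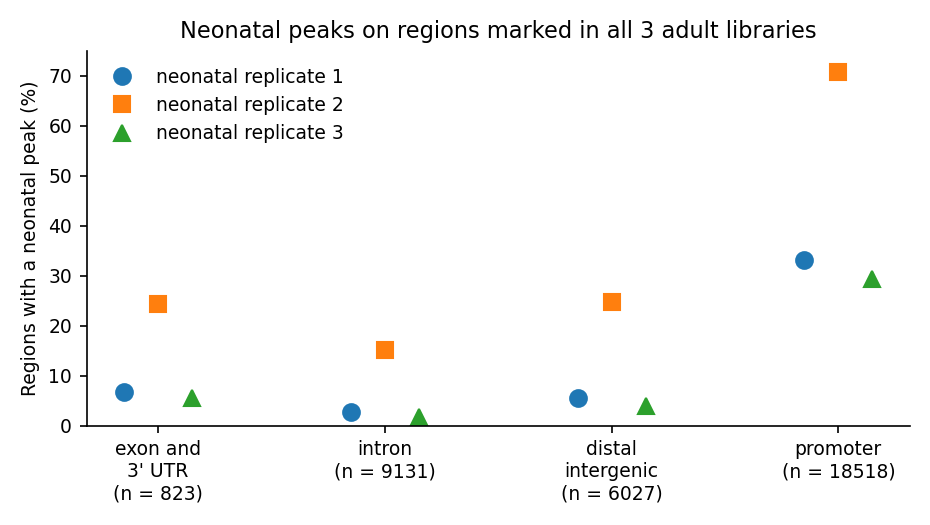
Percent of regions with a peak in each neonatal list (y axis; points are the 3 neonatal libraries) for exon and 3' UTR regions and for intron, distal intergenic and promoter regions chosen by the same adult rule. Exon and 3' UTR regions lie above intron regions and below promoter regions in every library, and change places with distal intergenic regions in replicate 2.

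Compared with intron regions in the same neonatal libraries, the exon and 3' UTR regions had a neonatal peak more often in 3 of 3 libraries. Intron shares were 2.81%, 15.1% and 1.75%, and the mean difference was 5.65 percentage points ± 3.22 (SD, n = 3; exact two-sided sign-flip permutation test, p = 0.25; Benjamini-Hochberg adjusted p = 0.375 over 3 classes). The smallest p that 3 libraries allow in this test is 0.25, so no difference could pass 0.05. Against promoter regions (33.2%, 70.8% and 29.4%) the mean difference was -32.3 points ± 12.3 (exact permutation p = 0.25, adjusted 0.375, lower in 3 of 3). Against distal intergenic regions (5.56%, 24.8% and 3.87%) it was 0.787 points ± 1.03 (exact permutation p = 0.5, adjusted 0.5, higher in 2 of 3), and this difference was smaller than the spread between libraries. Without adult replicate 2 it was -0.13 points, and without adult replicates 1 and 3 in turn it was 0.0556 and 0.0393, while without neonatal replicates 2 and 3 in turn it was 1.36 and 0.379. With peaks required to cover at least 50% of a region it was 1.68. Restricted to regions of 300 to 1000 bp it was 2.27, and restricted to adult folds of 4 to 8 it was 2.32. The promoter difference shrank to -9.59 with 50% coverage and to -14.6 at adult folds of 4 to 8, and was -21.6 at widths of 300 to 1000 bp. The intron difference was 3.45 points with 50% coverage and 3.79 without neonatal replicate 2.

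Within the class, 73.2% of exon-only, 79.0% of 3' UTR-only and 67.2% of mixed regions had no neonatal peak. The neonatal peaks on the regions numbered 58, 237 and 46, and most of them (52, 208 and 40) were themselves annotated exon or 3' UTR. Their median folds were 4.20, 4.56 and 4.48, against 4.70, 4.81 and 4.63 over the whole of each neonatal list.

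Where all 3 neonatal lists had a peak on a region, the highest neonatal folds were in Gm45167, Midn, Dda1, Snx20, Junos, Prdm2, Foxo6 and Nfatc2. Junos lies opposite the immediate early gene Jun, but its region was 106741 bp from the nearest adult promoter peak. Over its exon 4 of 4 (4:95160714-95161885) the neonatal folds were 4.67, 10.5 and 5.81 and the adult folds 12.2, 11.8 and 17.9. A 3' UTR region given to Dda1, a component of a cullin ubiquitin ligase, had 5.57, 9.97 and 6.17 in neonatal and 11.2, 6.66 and 10.4 in adult lists. The centre of that region lay outside the RefSeq span of Dda1. Foxo6, a forkhead transcription factor, and Nfatc2, a calcium-regulated transcription factor, had peaks over exon 2 of 2 and exon 9 of 10 in all 6 lists. Neither of these 2 regions overlapped a listed differential site. Folds of different lists are not on a common scale and show no change by themselves.

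Midn, which encodes midnolin, a protein that delivers substrates to the proteasome, held 3 regions. The region at 10:80155881-80156770 was covered by peaks over 886, 890 and 490 bp in the neonatal lists and over 254, 202 and 890 bp in the adult lists. Neonatal and adult coverage overlapped. In the authors' deposited table this region held the only negative site of the 823, with a log2 fold change of -1.08 (adjusted p = 0.0181).

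**Figure D3:**
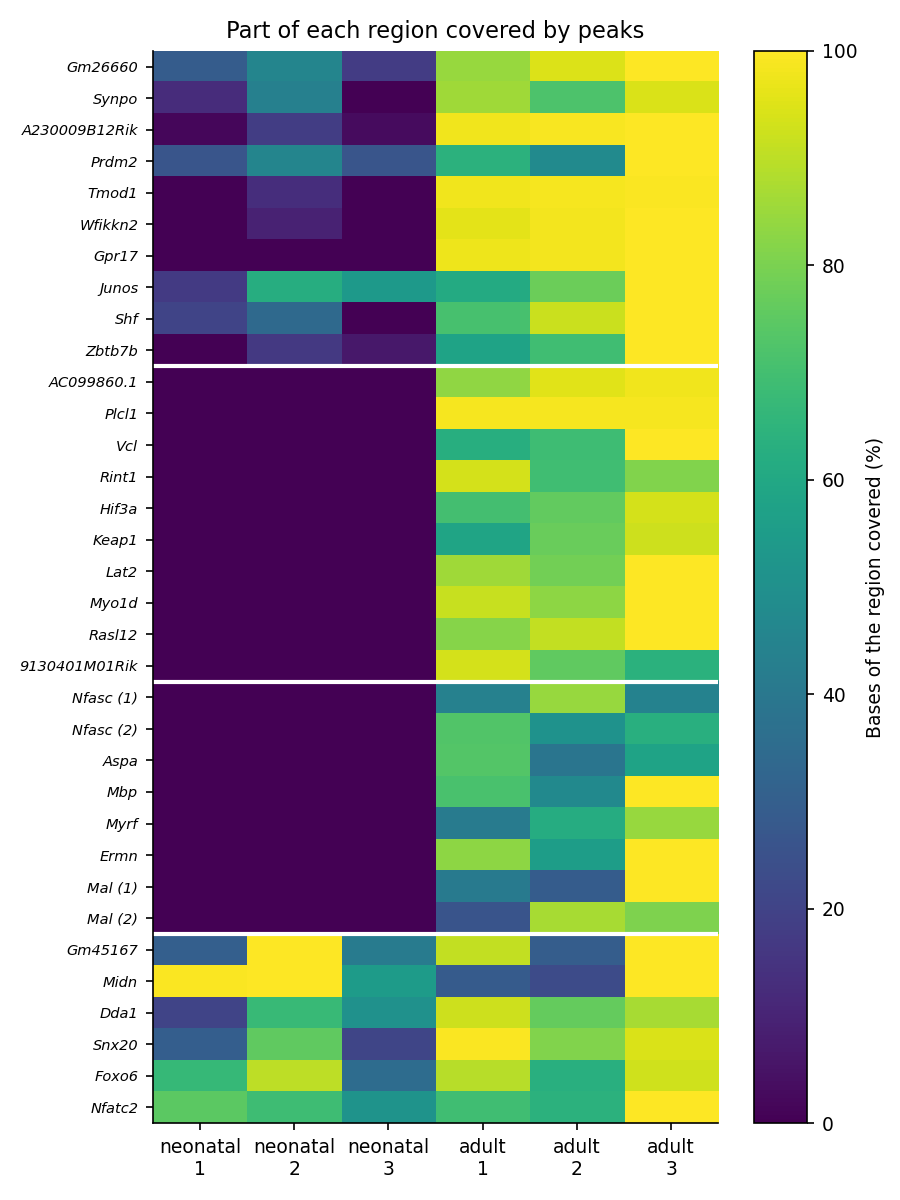
Percent of the bases of each named region covered by peaks (colour scale, 0 to 100) in the 3 neonatal and 3 adult libraries (columns); white lines part the strongest regions, those with the largest positive sites, those of myelin genes and those with the highest neonatal folds. The Gpr17 and myelin gene regions are covered in the adult libraries alone, and the Midn region is covered more in the neonatal libraries than in adult replicates 1 and 2.

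The authors' deposited table lists 43888 sites that differ between the ages, 43634 with a positive and 254 with a negative log2 fold change. Positive sites in the authors' deposited table overlapped peaks of adult replicate 1 in 85.0% and of neonatal replicate 1 in 11.7%, and negative sites in 23.2% and 78.0%, so positive was read as higher in adult cells. Of the 823 regions, 707 (85.9%) overlapped a positive site in the authors' deposited table, against 86.1% of all 37086 regions, a share near the background. A negative site was on 1 region, against 0.0378% of all regions, and 115 regions had no listed site. The table uses the adult libraries that chose the regions, so these values are description.

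Per region, the authors' deposited table gave a median log2 fold change of 2.87 (quartiles 2.06 and 3.82). It was 2.24 over all regions with a listed site, 2.92 for intron, 2.78 for distal intergenic and 1.71 for promoter regions in the authors' deposited table. By the number of neonatal lists with a peak, the medians in the authors' deposited table were 3.12 for none, 1.73 for 1, 1.47 for 2 and 1.18 for 3. A positive site was listed for 96.1%, 58.5%, 44.4% and 48.6% of these regions in the authors' deposited table. That table compares adult with neonatal cells, and the groups were made from neonatal peaks. Lower values with more neonatal lists thus follow in part from the grouping and are description. The same split over all regions was not made.

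**Figure D4:**
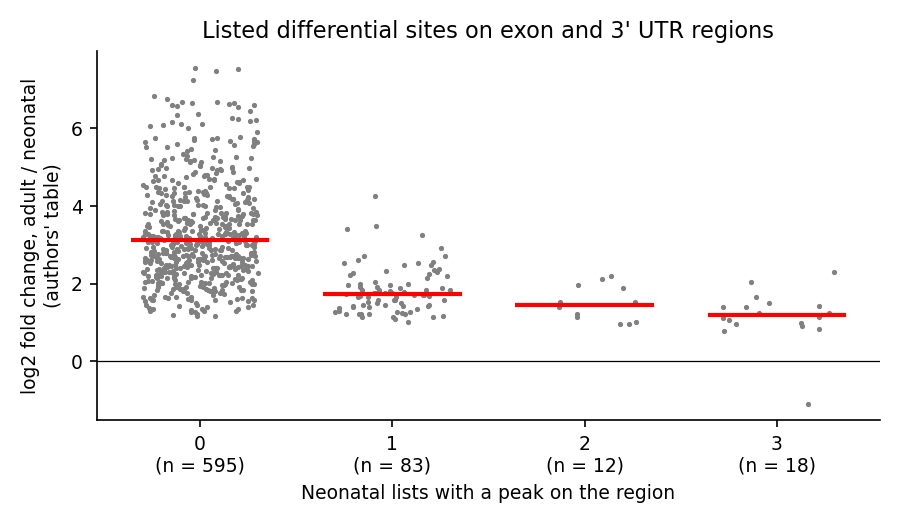
Log2 fold change of the authors' listed site on each region (y axis; positive is higher in adult), by the number of neonatal lists with a peak on the region (points, regions with a listed site; red lines, medians). Medians go from 3.12 with no neonatal list to 1.18 with all 3. Both axes draw on neonatal data, so they are not independent.

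The largest positive values were all on regions with no neonatal peak. In the authors' deposited table they were 7.56 in a region assigned to AC099860.1, 7.53 in Plcl1, 7.49 in Vcl and 7.23 in Rint1. The authors' deposited table then gave 6.83 in Hif3a, 6.75 in Keap1, 6.69 in Lat2, 6.67 in Myo1d, 6.65 in Rasl12 and 6.64 in 9130401M01Rik. Plcl1 encodes a phospholipase C-related protein without catalytic activity, and its 3' UTR (1:55748852-55751866) had folds of 11.2, 11.9 and 13.0 in adult replicates 1, 2 and 3. Vcl encodes vinculin, which ties integrins to actin, and its exon 19 of 21 (14:21028433-21030406) had 11.6, 8.79 and 6.63. A 3' UTR region given to Lat2, an adaptor of receptor signalling in blood cells, had 13.0, 12.8 and 11.6 (5:134619209-134622153). The centre of that region lay outside the RefSeq span of Lat2. Keap1, the adaptor that targets the oxidative stress factor Nrf2 for degradation, had 5.42, 6.97 and 7.73. Hif3a, a subunit of the hypoxia-inducible factors, had 5.69, 4.10 and 6.99. Myo1d, an unconventional myosin, had 5.06, 5.96 and 3.93 over exon 11 of 22. The folds of these regions thus ran from near the class median to well above it.

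One stretch stood out in number and was chosen after its values were seen. On chromosome 1 between 97616397 and 97639531 (23.1 kb), 11 separate regions were all annotated 3' UTR. The annotation of a 3' UTR names no gene, and AC099860.1, a predicted gene, was only the gene assigned by nearest start. Adult replicates 1, 2 and 3 had 21, 18 and 14 peaks in it, covering 9648, 11499 and 14961 bp, and the neonatal lists had 0 peaks. All 11 regions overlapped a positive site in the authors' deposited table, with log2 fold changes from 2.36 to 7.56. RefSeq (GRCm38.p6) places no gene of that name, and puts the protein-coding gene Macir next to the stretch at 1:97643902-97662018. The 11 regions are neighbours assigned to a single gene and count as 1 locus.

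Several other genes held a chain of regions. Itsn2, a scaffold of endocytosis, Ttll5, an enzyme that adds glutamate to tubulin, and Zfhx2, a zinc finger homeobox factor, held 5 each. None of these 15 had a neonatal peak, against 75.2% without one over all 823 regions. Over all 37086 regions with a peak in all 3 adult lists the share was 54.0%. Regions of the same gene are neighbours and not independent. Ttll5 carried 4 of its 5 within an exon annotated 10 of 10, the strongest (12:85868817-85871372) with adult folds of 8.17, 10.2 and 12.2. Ctif, Ippk, Notch1 and Trpv3 held 4 each. The other genes with 3 regions or more were Card10, Dst, Heyl, Map1a, Midn, Ncoa2, Prag1, Sft2d2, Tob2 and Znrf1, with 3 each. Of the 93 genes with at least 2 regions, 69 had no neonatal peak on any, 6 had one on every region and 18 were mixed. Without neonatal replicate 2 the counts were 88, 2 and 3.

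Notch1, the receptor that holds back oligodendrocyte differentiation, was mixed. Its region at exon 3 of 34 (2:26485107-26485825) had a peak in all 3 neonatal lists, with folds of 4.16, 5.57 and 4.08, against adult folds of 4.99, 3.87 and 3.54. Its region at exon 14 of 34 (2:26474545-26476863) had adult folds of 6.51, 9.64 and 6.82 and a peak in neonatal replicate 2 alone. The other 2 Notch1 regions had a neonatal peak in replicate 2 or in none. Heyl, a transcriptional repressor downstream of Notch, had 3 regions over its 3' UTR, 1 of them with a neonatal peak, in replicate 2.

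Of 20 myelin genes, 6 hosted 8 regions, and none of the 8 had a peak in any neonatal list. Of the 8, 7 held a positive site in the authors' deposited table, with a median log2 fold change of 3.36. Over all 823 regions, 75.2% had no neonatal peak and 85.9% held a positive site. Over all 37086 regions with a peak in all 3 adult lists these shares were 54.0% and 86.1%. The 8 regions are too few to be set apart from these shares. Myrf, the transcription factor that switches on myelin genes, had adult folds of 3.60, 3.69 and 4.42 over an exon (19:10227293-10227975) and a log2 fold change of 6.07 in the authors' deposited table (adjusted p = 5.81e-07). Ermn, which encodes the oligodendrocyte cytoskeletal protein ermin, had 7.23, 6.52 and 5.75 over its 3' UTR (2:58045376-58046421) and a log2 fold change of 4.85 in the authors' deposited table. Mbp, myelin basic protein, had 6.29, 5.68 and 5.30 over its 3' UTR (18:82583427-82585180) with no listed site, and its promoter had a peak in all 3 neonatal and all 3 adult lists. Nfasc, the adhesion molecule of the node of Ranvier, had 2 adjoining 3' UTR regions, and Mal, a proteolipid of compact myelin, had 2 exon regions. Aspa, the enzyme that cleaves N-acetylaspartate, had 1 region over its 3' UTR with folds of 5.42, 5.37 and 3.54. The adult lists had a promoter peak at all 20 myelin genes, so the 6 hosts were a subset of the marked genes.

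Cytoskeletal and adhesion genes hosted 12 regions in 6 of 18 genes. Of the 12, 11 had no neonatal peak, against 75.2% of all 823 regions. The median log2 fold change was 3.20 in the authors' deposited table. Map1a, a microtubule-associated protein, held 3 over exon 5 of 7, the widest of them (2:121300804-121303829) with adult folds of 7.59, 6.81 and 7.29. Tln2, talin 2, which links integrins to actin, held 2, and 1 of them had a log2 fold change of 6.19 in the authors' deposited table. Dst, the cytoskeletal linker dystonin, held 3, and the strongest, at exon 39 of 103, was the one with a neonatal peak (replicate 2) and had adult folds of 10.8, 12.8 and 11.3. Ank3 and Macf1 had 1 each, and Nfasc belongs to this list as well.

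Of 24 lineage transcription factors, Myrf and Zfp536 hosted a region. Zfp536, a zinc finger repressor, had adult folds of 4.34, 3.12 and 3.76 and a log2 fold change of 5.64 in the authors' deposited table. Among the chromatin regulators, a region in Bcor, a corepressor, had adult folds of 5.06, 4.82 and 5.33 and a peak in neonatal replicate 2 alone. Chd7, a chromatin remodeller needed for oligodendrocyte differentiation, had 5.87, 3.54 and 5.52 over exon 24 of 38 and no neonatal peak. Of 18 OPC genes, Gpr17 alone hosted a region. Of 16 vascular and fibroblast genes, Kdr, the receptor of vascular endothelial growth factor, had 1, with adult folds of 10.8, 10.3 and 8.84 over exon 27 of 30 and no neonatal peak. None of the lipid metabolism, immediate early, neuron, astrocyte or microglia genes listed hosted a region. Over all regions 75.2% had no neonatal peak, and these lists hold too few regions for their shares to be set apart from that.

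After A230009B12Rik, the widest region lay over the 3' UTR of Tppp, which encodes a tubulin polymerisation protein of oligodendrocytes. It measured 6872 bp (13:74028435-74035306), and adult peaks covered 6319, 6538 and 6869 bp of it, with folds of 7.92, 9.81 and 8.25. No neonatal list had a peak on it, and the log2 fold change was 4.03 in the authors' deposited table. An adult promoter peak lay 229 bp from the Tppp region. Regions of 4976 bp assigned to Zfp706 (15:37039230-37044205) and of 4621 bp in Btbd16 (7:130815088-130819708) followed, with adult folds of 9.04, 12.2 and 9.84 and of 8.99, 9.36 and 11.1 and no neonatal peak. Abhd5, a co-activator of triglyceride breakdown, had a 3' UTR region of 4521 bp (9:122378077-122382597) of which adult peaks covered 2848, 3289 and 4521 bp and neonatal peaks none.

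The share of all peaks that were annotated exon or 3' UTR did not itself set which regions were kept. It is not independent of the choice, since 990, 964 and 878 adult peaks of the regions (adult replicates 1, 2 and 3) are counted in it. The comparison of the share between the ages is therefore description. The share was 1.29%, 2.49% and 1.12% in neonatal replicates 1, 2 and 3 (117, 777 and 82 peaks). In adult replicates 1, 2 and 3 it was 4.24%, 4.12% and 4.56% (3062, 2996 and 3513 peaks). The lowest adult share exceeded the highest neonatal share. The means were 1.63% ± 0.750 and 4.31% ± 0.228 (SD, n = 3 each), a difference of 2.68 points (exact permutation test over libraries, two-sided p = 0.1, which is the lowest that 3 against 3 libraries allow; Benjamini-Hochberg adjusted p = 0.1 over 3 shares). Exons alone had 1.05% ± 0.470 and 2.65% ± 0.167, a difference of 1.60 points, and 3' UTRs alone 0.578% ± 0.280 and 1.66% ± 0.0673, a difference of 1.08 points (exact permutation p = 0.1 and adjusted p = 0.1 for both).

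**Figure D5:**
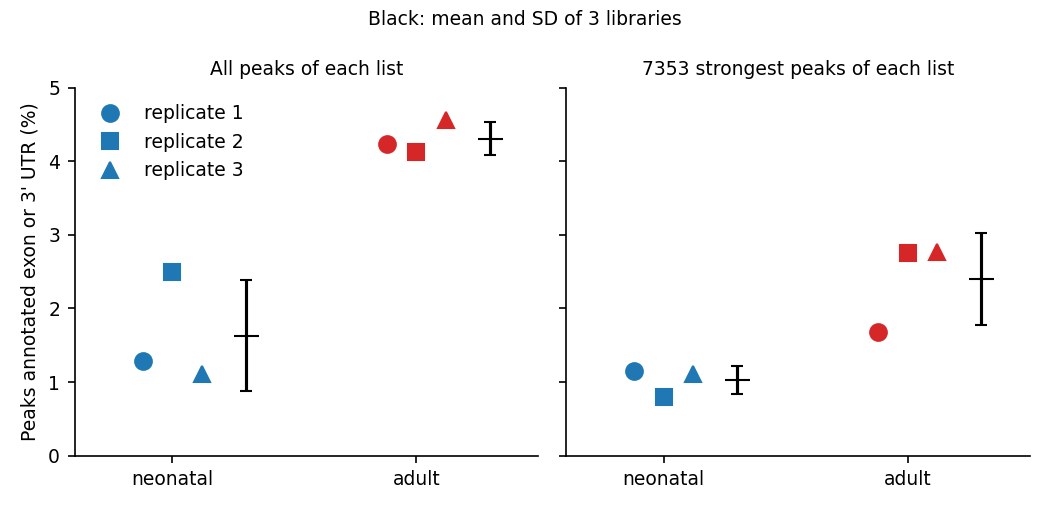
Percent of the peaks of each library annotated exon or 3' UTR (y axis, from 0), in the full lists and in the 7353 strongest peaks of each list by p-value (points, libraries; black, mean and SD of 3 libraries). Adult libraries lie above neonatal libraries in both, from 4.12% upward against at most 2.49% in the full lists.

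The lists differ in length, and the shortest, neonatal replicate 3, has 7353 peaks. The 7353 strongest peaks of each list were taken by p-value, with fold used only for ties. Among them the shares were 1.16%, 0.802% and 1.12% in neonatal and 1.67%, 2.75% and 2.76% in adult replicates 1, 2 and 3. The difference was 1.37 points with no overlap between the ages. With exons alone the difference there was 0.780 points and with 3' UTRs alone 0.589. The part of library depth in the remaining difference was not tested.

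The same rule applied to the neonatal lists gave far fewer regions. Of 4932 regions with a peak in all 3 neonatal lists, 45 held exon or 3' UTR peaks alone. Of these 45, 34 (75.6%) had a peak in all 3 adult lists, against 96.0% of all 4932, and 28 overlapped one of the 823 regions. A single one, in Proser2 (2:6100298-6100845), had no peak in any adult list, against 39 of all 4932.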

How the data were processed

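ChIP-seq of H4K8ac was done on sorted neonatal and adult OPCs, with 3 libraries per age. The authors deposited 1 peak list per library, so peaks were called per library. Per the file headers each list gives position, a score, fold enrichment (a linear ratio), and −log10 of the p-value and q-value. The deposited score equals 10 times −log10 q, rounded down. A further table by the authors, of sites that differ between the ages, gives for each its log2 fold change, p-value and adjusted p-value, without values per library. The submitters' processing notes name Trim Galore, Bowtie2 2.4.5, SAMtools, deepTools, MACS2, DiffBind, ChIPseeker and GRCm38. Their settings, and whether input was used in calling peaks, are not given in the sources used here.

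Start positions in the lists count from 0, and coordinates are printed counted from 1. Of 14242 protein-coding genes with the same symbol in RefSeq (GRCm38.p6), 14230 overlapped the RefSeq position. Merging and counting used Python 3.11.15, numpy 2.4.6, pandas 2.3.3 and matplotlib 3.10.9. Overlap meant 1 bp or more. Intron, distal intergenic and promoter regions were formed by the same rule as the exon and 3' UTR regions. A promoter peak is one annotated within 3000 bp of a start.

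Shares per library were compared by exact permutation over 20 arrangements, and region classes by exact sign flips within the 3 neonatal libraries (8 flips). Merging, classing and overlap were checked on simulated peak lists, and both tests on fixed values for their smallest p-value only. The regions and the 11 gene lists were chosen with earlier results of these data known. Named regions were the 10 strongest by geometric mean fold, the 10 largest positive and all negative listed sites, the 8 with the highest neonatal fold in all 3 lists, the 10 genes with the most regions (at least 3, ties in alphabetical order), the 5 widest and the listed genes, of which 1 is not reported here. The host gene was the gene of the annotated transcript, otherwise the gene whose RefSeq span overlaps the region by 1 bp or more, otherwise the assigned gene. A 3' UTR region named by span or assignment may thus belong to another gene. Where a 3' UTR region overlapped several protein-coding spans, the assigned gene was taken if it was among them. Gpr17, Lat2, Dda1 and Zbtb7b were named in this way. Alternatives covered a q-value under 0.005, merging within 500 bp, other annotation rules, equal list lengths, covered bases, 50% coverage, width and each replicate left out. Sequence motifs and base composition of the regions were not analysed here.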

Additional observations from a re-analysis of the deposited data

How the results depend on the processing

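The number of regions depended on how they were formed. It was 425 with peaks within 500 bp merged, 2202 with at least 1 exon or 3' UTR peak required, 61 with the 7353 strongest peaks of each list by p-value, and 1261 to 1396 with 1 adult replicate left out, where a peak in only 2 lists was needed. The regions with no neonatal peak then numbered 292, 1655, 39 and 998 to 1116, and 619 to 758 with 1 neonatal replicate left out. As a share, 68.7% had no neonatal peak with peaks within 500 bp merged and 63.9% with equal list lengths.

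The difference from distal intergenic regions ran from -0.13 to 1.36 points with 1 library left out, negative without adult replicate 2. The differences from intron and promoter regions and the 3 peak shares kept their direction under every alternative run. Restricting adult folds to 4 to 8 was chosen after seeing the data. No p-value could pass 0.05 in either design, so these p-values say nothing about stability. With the replicate block, which pairs same-numbered libraries, the differences in exon or 3' UTR, exon and 3' UTR share were 2.68, 1.60 and 1.08 points (exact sign-flip permutation p = 0.25 each). Same-numbered libraries deviated together with correlations of -0.0650, 0.0537 and 0.116, so the numbers were not taken as pairs. Read depth is not given, and a missing neonatal peak is a peak not called in a shorter list.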
